A study of Mus musculus with 47 samples.

Results

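The transcription factors described here are 10 genes linked to the basal lineage of the mammary epithelium, *Trp63*, *Snai2*, *Id4*, *Mef2c*, *Egr2*, *Sox9*, *Sox10*, *Zeb1*, *Zeb2* and *Twist1*. They were chosen by name and found in the expression table by gene symbol, and 9 of the 10 have a row among the 17078 genes. *Zeb1* was not analysed here. The 9 are *Trp63* (ENSMUSG00000022510) and *Snai2* (ENSMUSG00000022676) on chromosome 16, *Id4* (ENSMUSG00000021379) and *Mef2c* (ENSMUSG00000005583) on chromosome 13, *Egr2* (ENSMUSG00000037868) on chromosome 10, *Sox9* (ENSMUSG00000000567) on chromosome 11, *Sox10* (ENSMUSG00000033006) on chromosome 15, *Zeb2* (ENSMUSG00000026872) on chromosome 2 and *Twist1* (ENSMUSG00000035799) on chromosome 12. Each of the 9 was followed in 46 RNA-seq libraries of FVB/N mice, 22 of basal and 24 of luminal cells.

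The mammary epithelium has an inner luminal layer, which makes milk, and an outer basal layer, which rests on the basement membrane and contracts to eject milk. p63, encoded by *Trp63*, holds the basal state of many stratified epithelia and drives basal keratins and adhesion genes. Snai2, Zeb2 and Twist1 bind E-box motifs and are known for repressing epithelial junction genes in mesenchymal cells, while Id4 pairs with other helix-loop-helix factors and keeps them off DNA. Mef2c acts with contractile and vascular gene programs, Egr2 is an early response gene that is also needed for myelin, and Sox9 and Sox10 are linked to progenitor states.

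Both cell types were sorted as lineage-negative, luminal cells as CD24 positive and CD29 low and basal cells as CD24 positive and CD29 high, so the genes of CD24 and CD29 are no finding here. The lineage antibodies were directed, among others, at leukocytes (CD45 and CD11b), endothelial cells (CD31) and CD140a, the product of *Pdgfra*. The paper lists the antigen of the CD140a antibody as human and those of the other lineage antibodies as mouse. The 8 time points began with never-pregnant mice, aged 10 weeks (W10) or 4 months (M4). Pregnant mice were taken on day 3.5 (P3.5) or day 14.5 (P14.5), and lactating mice on day 3 (L3) or day 10 (L10). Involution was sampled 2 days after the pups had been removed at lactation day 10 (Id2), and parous mice 4 weeks after weaning (Iw4). Each sort pooled 4 mice and gave a luminal and a basal library. Groups hold 3 sorts, except basal cells of P14.5, of which the authors set 1 sample aside as an outlier, and of L10, where 1 gave too little RNA, with 2 each. The spread between libraries is therefore that between pools of animals. Between 4398806 and 20023054 reads per library fell on genes (median 8518616). Values are CPM, the reads of a gene scaled by the effective library size, and 3 reads correspond to between 0.17 and 1.05 CPM. RNA was amplified in batches that follow the time points. W10 and Id2 shared batch 4, L3 and L10 batch 5, and P3.5 and P14.5 batch 6. M4 and Iw4 shared batches 1, 2 and 3. The comparisons of lactation with the never-pregnant state and of P3.5 with W10 cross batches, and there stage and batch cannot be told apart. Id2 against W10, L10 against L3, P14.5 against P3.5 and Iw4 against M4 were each compared within amplification batches. The first 3 of these pairs were sequenced on different lanes, so that stage and lane cannot be told apart, whereas M4 and Iw4 shared a lane. The averages, orders and tests over all 8 time points span batches.

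Some libraries stood apart from their labels. The basal libraries of Id2 held little RNA of keratin genes that define basal cells. *Krt5* was at 4.68, 156 and 6.95 CPM in replicates 2, 4 and 6, against 1469 to 1997 CPM at W10, and *Krt14* was at 2.65, 49.0 and 3.07 CPM. Of the 10 basal markers examined, all 10 were lower at Id2 than at W10 in these cells. Their summed level was 994 CPM in replicate 2, 15220 CPM in replicate 4 and 917 CPM in replicate 6, with *Acta2* the most abundant, against 19190 to 27850 CPM at W10. *Acta2* itself was at 8399 CPM in replicate 4, near the 8588 to 13110 CPM of W10. Without replicate 2 or without replicate 6, 8 of the 10 were still lower by the criterion given below, and without replicate 4 all 10 were. The same 3 libraries were high in markers of other cells. Replicate 2 held 13990 CPM of 12 endothelial genes (*Cdh5* the most abundant), replicate 4 held 11760 CPM of 8 pericyte genes (*Rgs5*), and replicate 6 held 77650 CPM of 12 fibroblast genes (*Col1a1*). None of these 3 lists had a gene at 0 in the Id2 basal libraries. Among luminal libraries, replicate 5 of L3 and L10 carried the most RNA of the basal markers, 1538 and 2961 CPM. The other L3 and L10 luminal libraries held 587 to 1271 CPM.

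**Figure D1:**
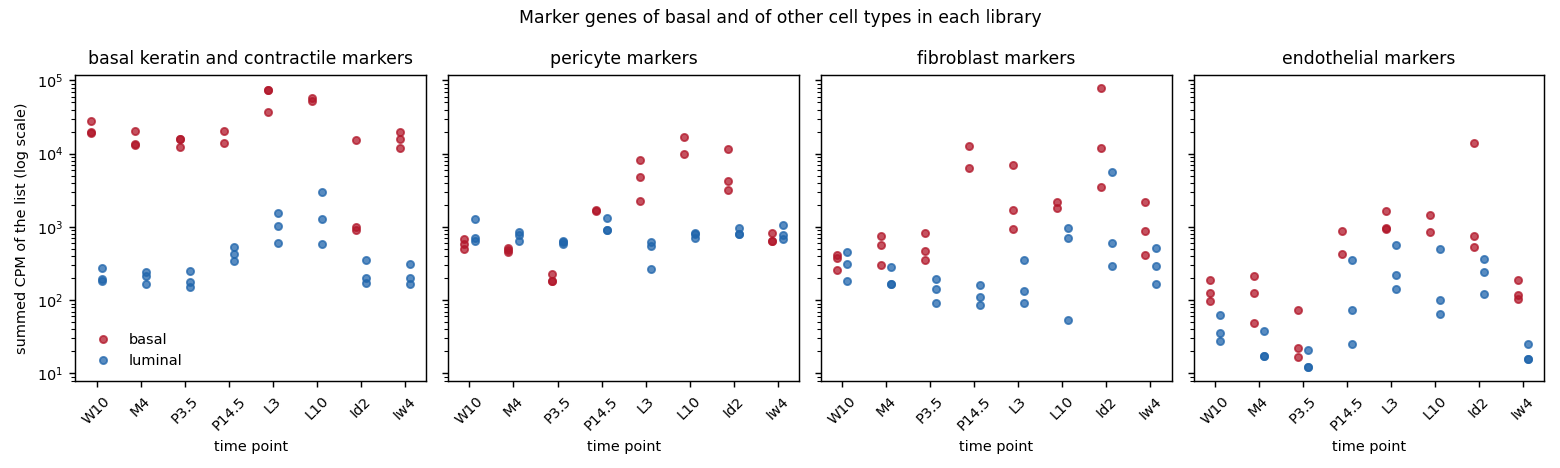
Summed CPM of marker genes in each library (points, log axis) by time point, for 10 basal, 8 pericyte, 12 fibroblast and 12 endothelial genes, in basal (red) and luminal (blue) cells. The Id2 basal libraries fall to 917 and 994 CPM of basal markers in replicates 6 and 2, and pericyte markers in basal cells run from 183 CPM at P3.5 to 17050 CPM at L10.

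Promoter windows were read from RefSeq (build GRCm38.p6), which listed 14 windows for 5 of the 10 genes (*Id4*, *Mef2c*, *Egr2*, *Zeb2* and *Twist1*). The 250 bases upstream of the start are printed 5′ to 3′ for 3 of the genes that changed with lactation in basal cells, *Id4* and *Egr2*, which fell, and *Twist1*, which rose. The windows lie at chr13:48260866-48261115 for *Id4*, at chr10:67537619-67537868 for *Egr2*, the third of its 5 windows by position, and at chr12:33957421-33957670 for *Twist1*, all on the plus strand. Capitals mark matches to an E-box (CANNTG), a CArG box (the site of serum response factor), a GC box (GGGCGG) or a TATA box (TATAAA), each searched on both strands.
Id4: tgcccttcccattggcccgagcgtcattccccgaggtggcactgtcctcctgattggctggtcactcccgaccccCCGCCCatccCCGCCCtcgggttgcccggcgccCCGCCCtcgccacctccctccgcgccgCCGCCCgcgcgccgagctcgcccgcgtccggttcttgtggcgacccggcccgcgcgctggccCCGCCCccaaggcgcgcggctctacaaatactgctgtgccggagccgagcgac
Egr2: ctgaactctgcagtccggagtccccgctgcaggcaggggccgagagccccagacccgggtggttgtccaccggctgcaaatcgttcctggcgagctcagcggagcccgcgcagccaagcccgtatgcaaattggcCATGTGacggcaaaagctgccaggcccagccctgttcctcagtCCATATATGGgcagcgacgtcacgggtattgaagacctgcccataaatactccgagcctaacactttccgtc
Twist1: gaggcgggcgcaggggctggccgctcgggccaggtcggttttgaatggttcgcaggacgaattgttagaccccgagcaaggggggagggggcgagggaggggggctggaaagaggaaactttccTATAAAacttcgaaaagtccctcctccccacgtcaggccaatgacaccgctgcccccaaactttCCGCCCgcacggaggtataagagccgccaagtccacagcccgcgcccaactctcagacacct

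The *Id4* window held 5 GC boxes and no match to the other 3 motifs. The *Egr2* window held 1 E-box and 1 CArG box, and a CArG box was found in 4 of the 5 *Egr2* windows. The last 3 of those windows overlap and show the same site. A CArG box was present in 1.47% of all 32851 windows of this length, an E-box in 66.2%, a GC box in 32.7% and a TATA box in 12.4%. The *Twist1* window held 1 GC box and 1 TATA box. The form of the E-box preferred by Snail factors (CAGGTG), which is one of the E-box matches, occurred in 17.2% of all windows and in none of the 14 windows of these genes. Such matches only describe the letters, and the absence of a match says nothing of the factor.

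Which of these genes separated basal from luminal cells was examined first. Averaged over the 8 time points, 7 of the 9 genes were higher in basal cells by at least 2-fold at a false discovery rate (FDR) under 0.01 (limma, Benjamini-Hochberg adjusted over all genes), against 13.6% of all genes tested. These were *Snai2*, *Mef2c*, *Trp63*, *Id4*, *Zeb2*, *Egr2* and *Twist1*. The median log2 fold change of the 9 was 3.64, and that of all genes was 0.02. Fold changes are on the log2(CPM + 1) scale, which understates those of genes with few reads. In bulk libraries, fewer cells of a type and less RNA per cell cannot be told apart.

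*Snai2*, which encodes the zinc finger repressor Slug, had an average difference of 5.50 on the log2 scale (standard error 0.18, FDR = 1.8e-24). At W10 it was at 184, 202 and 252 CPM in basal cells and at 1.61, 1.47 and 1.37 CPM in luminal cells, a ratio of means of 143. Its basal libraries lay above its luminal libraries at all 8 time points, including Id2, with 12.2, 44.8 and 60.3 CPM in basal and 0.79, 0.374 and 7.73 CPM in luminal cells.

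*Mef2c* also stayed above luminal levels in every basal library at each of the 8 time points, with an average log2 difference of 4.88 (standard error 0.22, FDR = 5.6e-21). Its basal values at W10 were 59.1, 62.8 and 109 CPM, beside 2.62, 1.61 and 0.622 CPM in luminal cells.

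*Trp63* differed by 4.86 on average (standard error 0.25, FDR = 3e-19) and by 5.55 without the Id2 libraries. Basal cells of W10 held 875, 810 and 999 CPM of it, and luminal cells 13.7, 11.6 and 5.97 CPM. At Id2 the groups overlapped, with 9.99, 26.6 and 3.39 CPM in basal and 20.4, 2.25 and 16.9 CPM in luminal cells, a log2 difference of 0.03 (standard error 0.68, FDR = 0.98).

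*Id4* was low in luminal cells. It was under 3 reads in 10 of the 24 luminal libraries and reached at most 1.88 CPM in any of them. In basal cells it was at 69.0, 56.4 and 76.3 CPM at W10 and at 118, 110 and 107 CPM at M4. Its average difference was 4.58 (standard error 0.17, FDR = 1.8e-23). At Id2 the difference was 1.49 (standard error 0.46, FDR = 0.011), with 2 reads in basal replicate 2. It passed with the sort as a block (FDR = 0.0049), by edgeR (FDR = 0.0021) and without Id2 basal replicate 2, where it was 2.22 (FDR = 0.00012).

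*Egr2* was higher in basal cells by 3.37 on average (standard error 0.26, FDR = 6.2e-14). At the 2 lactation time points it was not called. The difference was 1.60 at L3 (standard error 0.72, FDR = 0.077) and 1.16 at L10 (standard error 0.81, FDR = 0.28). At L10 the basal libraries held 144 and 113 CPM and the luminal libraries 15.2, 116 and 99.6 CPM, so the ranges overlapped.

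The E-box repressors *Zeb2* and *Twist1* had average differences of 3.64 (standard error 0.27, FDR = 1.3e-14) and 1.29 (standard error 0.20, FDR = 6.9e-07), with the higher level in basal cells. *Zeb2* was not called at W10 or P3.5, and at P3.5 its ranges overlapped (3.90, 1.12 and 12.8 CPM in basal, 0.569, 1.05 and 1.27 CPM in luminal cells). *Twist1* was called at L3, L10 and Id2 only, and each of these calls was lost by edgeR (FDR = 0.012, 0.08 and 0.045). Its L3 call was also lost without L3 basal replicate 5 or 6 or any 1 L3 luminal library (FDR = 0.02 to 0.07), and its L10 call without L10 basal replicate 5 or 6 or luminal replicate 4 or 5 (FDR = 0.016 to 0.034). It was under 3 reads in 4 of the 22 basal and 19 of the 24 luminal libraries.

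*Sox9* and *Sox10* did not follow the other 7. *Sox9* was lower in basal cells, with an average log2 difference of -0.75 (standard error 0.12, FDR = 7.6e-07), short of a 2-fold change, and of -0.42 without the Id2 libraries. Its W10 values were 302, 424 and 328 CPM in basal and 517, 571 and 659 CPM in luminal cells. *Sox10* differed by 0.11 (standard error 0.14, FDR = 0.5), or by 0.64 without Id2 (FDR = 0.00021), which is also short of 2-fold. At W10 every basal library was above every luminal library for *Sox10*, 204, 186 and 293 CPM against 128, 62.1 and 146 CPM.

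At Id2 every basal library lay below every luminal library for both genes. *Sox9* was at 104, 105 and 58.5 CPM in basal and 970, 544 and 732 CPM in luminal cells, a log2 difference of -3.07 (standard error 0.32, FDR = 5.1e-09). *Sox10* was at 20.6, 32.6 and 12.4 CPM in basal and 313, 184 and 293 CPM in luminal cells, a difference of -3.59 (standard error 0.38, FDR = 5.6e-09). Neither changed past the threshold in luminal cells between W10 and Id2 (0.33 and 1.28, FDR = 0.52 and 0.013).

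By time point, 5 of the 9 genes were higher in basal cells at W10 (9.1% of all genes), 6 at M4 (8.2%), 5 at P3.5 (7.27%), 6 at P14.5 (9.54%), 6 at L3 (15.9%), 6 at L10 (13.8%), 5 at Id2 (12.2%) and 6 at Iw4 (7.79%). The only lower calls at these time points were those of *Sox9* and *Sox10* at Id2, where 9.39% of all genes were lower. Counted by libraries alone, 7 of the 9 had every basal library above every luminal library at W10 (24% of all genes), 8 at M4 (23.9%), 6 at P3.5 (22.7%), 7 at P14.5 (27.6%), 7 at L3 (23.4%), 6 at L10 (24.3%), 4 at Id2 (19%) and 7 at Iw4 (22%). Every luminal library lay above every basal library for *Sox9* at W10 (18.4%) and L3 (17.1%) and for *Sox9* and *Sox10* at Id2 (17.6%). The *Zeb2* calls at M4 and Iw4 were lost without single libraries. At M4 its FDR rose to 0.026, 0.011 and 0.019 without M4 basal replicates 2 and 6 or luminal replicate 1. At Iw4 it was 0.024, 0.035, 0.048 and 0.016 without basal replicates 5 and 6 or luminal replicates 3 and 5, and it also missed the threshold by edgeR (FDR = 0.013) and with the spread of the compared groups only (FDR = 0.011). With that spread all 5 higher calls at Id2 were lost, those of *Snai2* (FDR = 0.048), *Mef2c* (FDR = 0.021), *Egr2* (FDR = 0.097), *Zeb2* (FDR = 0.036) and *Twist1* (FDR = 0.11). So were those of *Trp63* at L3 (FDR = 0.015) and of *Trp63* and *Id4* at L10 (FDR = 0.067 and 0.012), and those of *Twist1* at L3 and L10 (FDR = 0.09 and 0.05). *Egr2* lost its call at P14.5 without basal replicate 3 (FDR = 0.018) and at Iw4 without luminal replicate 3 (FDR = 0.011).

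**Figure D2:**
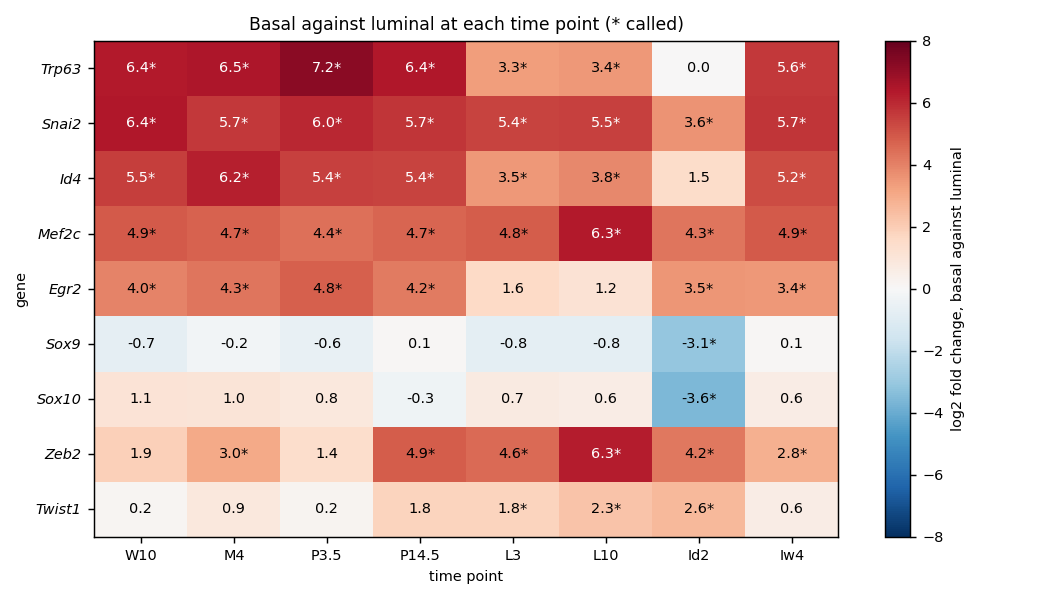
Basal over luminal log2 fold change (colour and number) for each of the 9 genes (rows) at each time point (columns), with a star where the change was at least 2-fold at an FDR under 0.01. *Snai2* and *Mef2c* are starred at all 8 time points, and *Sox9* (-3.07) and *Sox10* (-3.59) are negative and starred at Id2.

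Levels can be compared between genes only per length. At W10 in basal cells, the mean level per kilobase of exon was 289 CPM for *Egr2*, 107 for *Trp63*, 105 for *Snai2*, 84.9 for *Sox9*, 74.6 for *Sox10*, 17.5 for *Id4*, 4.89 for *Mef2c*, 0.408 for *Zeb2* and 0.0757 for *Twist1*. By L10 the mean level per kilobase was 167 CPM for *Snai2*, 128 for *Sox10*, 81.5 for *Sox9*, 57.8 for *Trp63*, 37.7 for *Egr2*, 30.9 for *Mef2c*, 26.0 for *Zeb2*, 4.85 for *Id4* and 3.89 for *Twist1*. *Egr2* thus went from the first to the fifth place in mean level per kilobase, and *Zeb2* from below *Id4* to above it. W10 and L10 were amplified in different batches. The pericyte sum in basal cells was 493 to 681 CPM at W10 and 9797 and 17050 CPM at L10, and its part in these orders was not tested. The sum of 12 immediate early genes in basal cells was 15980 to 41330 CPM at W10 and 41290 and 54330 CPM at L10. In the paper the glands were digested with enzymes and the organoids kept cold overnight before sorting. The part of this handling in the level of *Egr2*, an early response gene, was not tested.

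How the factors changed with pregnancy was examined next. None of the 9 was called between W10 and P3.5 in basal cells, against 6.76% of all genes. At an unadjusted p under 0.05 there was 1 (*Sox9*), and edgeR called 0. Between P3.5 and P14.5 in basal cells only *Zeb2* was called, with 2.46% of all genes higher. It went from 3.90, 1.12 and 12.8 CPM to 169 and 73.8 CPM, a log2 change of 4.43 (standard error 0.83, FDR = 0.00062). Both P14.5 libraries lay above all of P3.5, and without P14.5 basal replicate 3 the FDR was 0.036. Where basal cells of P14.5 or L10 are left with 1 library, here and above, that library is assumed to vary like the other groups. With the spread of the compared groups only, the FDR was 0.024. In the same comparison 9 of 12 fibroblast, 6 of 8 pericyte and 7 of 12 endothelial markers rose. The fibroblast sum was 12680 and 6434 CPM at P14.5 and 357 to 827 CPM at P3.5, and its part in the *Zeb2* result was not tested. In luminal cells no factor was called in either step (1.82% and 1.52% of all genes), with 1 each at an unadjusted p under 0.05 and 0 by edgeR.

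Lactation was taken as the mean of L3 and L10 against the mean of W10 and M4. In basal cells 2 of the 9 factors, *Id4* and *Egr2*, were lower (6.97% of all genes), and 3, *Zeb2*, *Mef2c* and *Twist1*, were higher (9.58%). *Trp63*, *Snai2*, *Sox9* and *Sox10* were not called.

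*Id4* in basal cells was at 11.8, 20.7 and 21.2 CPM at L3 and at 15.8 and 21.6 CPM at L10. All 5 lactation libraries were below all 6 never-pregnant libraries, and the log2 change was -2.21 (standard error 0.35, FDR = 4e-06). *Egr2* was at 205, 158 and 173 CPM at L3 and at 144 and 113 CPM at L10, against 1513, 580 and 854 CPM at W10 and 745, 538 and 711 CPM at M4. Its log2 change was -2.35 (standard error 0.54, FDR = 0.00077), again with no overlap. Its relative *Egr3* fell too (-1.88, FDR = 0.00043), whereas *Egr1* was not called (0.77, FDR = 0.13). *Egr1* and *Egr3* were also counted in a list of 12 immediate early genes, of which 5 rose, 1 fell and 6 were not called in this comparison, against 9.58% and 6.97% of all genes.

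*Mef2c* rose from 40.6 to 109 CPM in the 6 never-pregnant basal libraries to 177, 213 and 224 CPM at L3 and 429.5 and 542.5 CPM at L10. The log2 change was 2.37 (standard error 0.45, FDR = 6.3e-05). *Zeb2* was at 105, 163 and 376.5 CPM at L3 and at 394 and 641 CPM at L10, against at most 28.7 CPM before pregnancy, a change of 4.74 (standard error 0.55, FDR = 1.7e-08). *Twist1* was at 0.16, 4.82 and 5.29 CPM at L3 and 6.11 and 6.55 CPM at L10, against at most 1.38 CPM before pregnancy, a change of 1.83 (standard error 0.41, FDR = 0.00058). Its L3 replicate 4, with 2 reads, lay within the never-pregnant range. By edgeR on the recovered reads the log2 change of *Twist1* was 3.69 (FDR = 0.0069).

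Markers of other cells moved with these 3 genes. In the same comparison 7 of 8 pericyte, 12 of 12 endothelial and 5 of 12 fibroblast genes rose in basal cells. The pericyte sum was 2246, 4749 and 8226 CPM at L3 and 9797 and 17050 CPM at L10, with *Rgs5* the most abundant gene, against 452 to 681 CPM before pregnancy. The endothelial sum was 945, 970 and 1647 CPM at L3 and 1474 and 866 CPM at L10, with *Cdh5* the most abundant, against 48.3 to 211 CPM before pregnancy. The fibroblast sum was 950, 1689 and 7033 CPM at L3 and 1815 and 2223 CPM at L10, against 261 to 754 CPM. None of the 3 lists had a gene at 0 in the lactation basal libraries. Of the 10 basal markers, 3 rose in the same comparison (*Cnn1*, *Myh11* and *Tagln*), 0 fell and 7 were not called. These 3 are also smooth muscle genes, several of which pericytes express too. The part of pericytes, endothelial cells and fibroblasts in the rise of *Mef2c*, *Zeb2* and *Twist1* was not tested.

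The other 4 factors were not called in basal cells at lactation. *Trp63* was at 755, 624 and 559 CPM at L3 and 457 and 513 CPM at L10, a change of -0.42 (standard error 0.51, FDR = 0.56). *Snai2* was at 246, 345 and 219 CPM and at 284 and 390 CPM, a change of 0.91 (standard error 0.38, FDR = 0.06). *Sox9* changed by 0.37 (standard error 0.24, FDR = 0.24). *Sox10* changed by 0.89 (standard error 0.28, FDR = 0.013), with 429, 625 and 201 CPM at L3 and 308 and 476 CPM at L10, and without L3 basal replicate 6 it passed at 1.12 (FDR = 0.0019).

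In luminal cells the same comparison raised 5 factors, *Trp63*, *Snai2*, *Mef2c*, *Sox10* and *Zeb2*, against 7.37% of all genes. *Trp63* was at 61.9, 184 and 21.4 CPM at L3 and at 15.4, 163 and 31.9 CPM at L10, against at most 13.7 CPM before pregnancy, a change of 2.60 (standard error 0.48, FDR = 6.1e-05). The highest values were in replicate 5 of both time points, which also held the highest sum of basal markers. The markers of that sum did not move alike. *Krt5* was at 507 and 1143 CPM in replicate 5 of L3 and L10. *Acta2* was at 88.2 CPM in L3 replicate 5, against 137 and 135 CPM in replicates 4 and 6. At L10 it was at 152 CPM in replicate 5, against 33.0 and 97.3 CPM in replicates 4 and 6 and 17770 and 17000 CPM in basal cells. In luminal cells 6 of 10 basal markers rose, as many as without both of these libraries. Of the markers of other cells, 10 of 12 endothelial and 3 of 8 pericyte genes rose in the same comparison, or 2 of each without both of these libraries. With all libraries 3 of 9 immune genes rose too. The sum of all 9 was 1021 to 1604 CPM at L3 and 793 to 1631 CPM at L10, against 295 to 529 CPM before pregnancy. In basal cells it was 33.5 to 142 CPM before pregnancy. At Id2 nearly all of this sum in luminal cells was *Cd14*, as given below, so that it is no measure of immune cells in general. *Csf1r*, also of this list, was at 1.26 to 10.7 CPM at L3 and 2.26 to 17.7 CPM at L10. The part of other cells in the rise of the 5 factors was not tested. Without both replicate 5 libraries *Trp63* changed by 1.75 (FDR = 0.0028) and *Sox10* by 1.61 (FDR = 4.2e-05). *Snai2* (1.32, FDR = 0.012), *Mef2c* (1.00, FDR = 0.069) and *Zeb2* (1.50, FDR = 0.05) were then not called. The full values of these 3 were 1.51 (FDR = 0.0012), 1.60 (FDR = 0.0033) and 1.77 (FDR = 0.0081). *Zeb2* had few reads and lost its call without any of 10 single libraries, and *Mef2c* without W10 replicate 6 (FDR = 0.013), M4 replicate 1 (FDR = 0.01), L3 replicate 5 (FDR = 0.014) or L10 replicate 5 (FDR = 0.022).

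*Sox10* in luminal cells was at 204, 146 and 419 CPM at L3 and 290, 164 and 327 CPM at L10, against 62.1 to 146 CPM before pregnancy, a change of 1.29 (standard error 0.27, FDR = 0.00027). With the spread of the compared groups only, the luminal *Sox10* call was lost (FDR = 0.011), as were those of *Snai2* (FDR = 0.022), *Mef2c* (FDR = 0.025) and *Zeb2* (FDR = 0.012). Schwann cells, a known site of *Sox10* and *Egr2*, were examined through 10 genes. In luminal cells 1 of these rose and 1 fell with lactation, and in basal cells 1 rose and 1 fell. *Pmp22* was the most abundant in every basal library.

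Whether the change with lactation differed between the cell types was tested directly, and it did for *Trp63*, *Id4*, *Egr2* and *Zeb2*, 4 of the 9 (10.3% of all genes). For *Trp63* the basal minus luminal change was -3.02 (standard error 0.70, FDR = 0.0018). Without both luminal replicate 5 libraries it was -2.17 for *Trp63* (FDR = 0.0099), -2.22 for *Id4* (FDR = 0.0011) and 3.25 for *Zeb2* (FDR = 0.0036), and *Egr2* was no longer called (-2.20, FDR = 0.035). With a pseudocount of 0.1 only *Trp63* of the 4 was called, with *Id4* at FDR = 0.081, *Egr2* at 0.01 and *Zeb2* at 0.051. By edgeR *Id4* (FDR = 0.063) and *Zeb2* (FDR = 0.1) were not called.

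Between L3 and L10, none of the 9 was called in basal (1.14% of all genes) or luminal cells (0.381%), with 0 at an unadjusted p under 0.05 and 0 by edgeR in both.

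**Figure D3:**
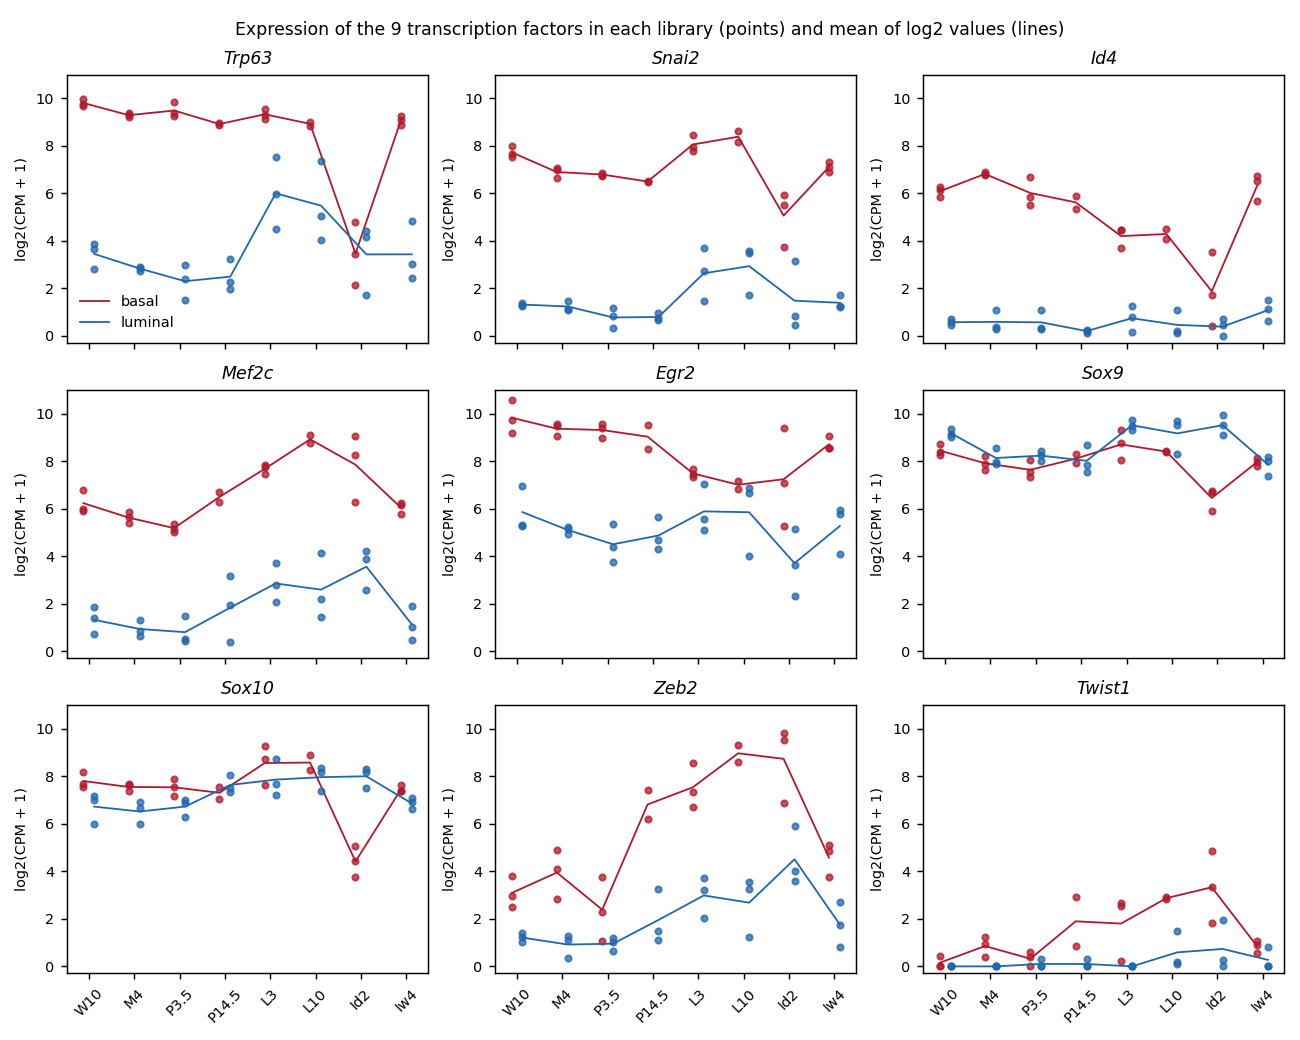
Log2(CPM + 1) of each of the 9 genes in each library (points) by time point, with lines through the means of the log2 values, in basal (red) and luminal (blue) cells. Every L3 basal library lies below every P14.5 basal library for *Id4* and *Egr2*, basal *Zeb2* has a rising mean from P3.5 to L10, and *Trp63* drops to 3.39 to 26.6 CPM at Id2 and is back at 470 to 605 CPM at Iw4.

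Early involution was compared with W10, which shared its amplification batch. In basal cells 6 of the 9 factors fell, *Trp63*, *Id4*, *Sox10*, *Snai2*, *Egr2* and *Sox9* (8.58% of all genes), and 2 rose, *Zeb2* and *Twist1* (8.78%). *Mef2c* was not called (1.62, standard error 0.60, FDR = 0.036). All of this rests on the 3 libraries that were low in basal keratins, given above.

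*Trp63* changed by -6.34 on the log2 scale (standard error 0.68, FDR = 4e-09), *Id4* by -4.21 (standard error 0.46, FDR = 6e-09) and *Sox10* by -3.39 (standard error 0.38, FDR = 9.2e-09). *Snai2* changed by -2.67 (standard error 0.51, FDR = 9.8e-05) and *Sox9* by -2.00 (standard error 0.32, FDR = 8e-06). For these 5 genes the 3 Id2 basal libraries lay below every basal library of W10, and no single left-out library ended their calls. With the spread of the compared groups only, *Snai2* (FDR = 0.027), *Id4* (FDR = 0.016) and *Sox9* (FDR = 0.011) were not called. *Egr2* changed by -2.59 (standard error 0.72, FDR = 0.0058), with 37.3, 133 and 670 CPM at Id2. Replicate 6 overlapped with W10, where the lowest value was 580 CPM. The call was lost by edgeR (FDR = 0.059), with the spread of the compared groups only (FDR = 0.13) and without W10 basal replicates 3 or 6 (FDR = 0.041 and 0.017) or Id2 basal replicates 2 or 4, where it was -1.60 (FDR = 0.1) and -2.50 (FDR = 0.019).

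*Zeb2* was at 115, 918 and 730 CPM in Id2 basal cells, a change of 5.65 (standard error 0.74, FDR = 2.1e-07) from 4.66, 6.87 and 12.9 CPM at W10. *Twist1* was at 2.50, 9.21 and 27.6 CPM, a change of 3.18 (standard error 0.55, FDR = 2.4e-05). Replicate 6, with the most fibroblast RNA, had the highest *Twist1*, and replicate 4, with the most pericyte RNA, had the highest *Zeb2* and the highest *Mef2c* (302, 526 and 75.5 CPM). In this comparison 10 of 12 fibroblast, 10 of 12 endothelial and 6 of 8 pericyte genes rose in basal cells. So did 5 of 9 immune and 8 of 8 milk genes, against 8.78% of all genes. The milk sum was 13680 to 60810 CPM at Id2 and 334 to 2136 CPM at W10. The part of the cells with these markers in the results was not tested. Without Id2 basal replicate 2 only 2 of the 12 endothelial genes rose. Without any 1 of the 3 Id2 libraries, 8 to 10 fibroblast and 6 or 7 pericyte genes rose. With the spread of the compared groups only, *Twist1* was at FDR = 0.034. Without Id2 basal replicate 6, *Mef2c* passed at 2.41 (FDR = 0.0024).

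In luminal cells, 2 of the 9 rose between W10 and Id2, against 6.23% of all genes. *Zeb2* went from 1.01, 1.61 and 1.37 CPM to 11.3, 15.2 and 59.0 CPM (3.30, standard error 0.74, FDR = 0.0012). Replicate 6 was highest and also held 5587 CPM of fibroblast markers, against 296 and 599 CPM in replicates 2 and 4, and without it *Zeb2* was at 2.60 (FDR = 0.021). *Mef2c* changed by 2.24 (standard error 0.60, FDR = 0.0059), and its call was lost without W10 replicates 5 or 6 (FDR = 0.018 and 0.039) or Id2 replicates 4 or 6 (FDR = 0.046 and 0.029). With the spread of the compared groups only, neither *Zeb2* (FDR = 0.02) nor *Mef2c* (FDR = 0.041) was called. The change from W10 to Id2 differed between the cell types for 5 of the 9 (6.85% of all genes), *Trp63*, *Sox10*, *Id4*, *Snai2* and *Sox9*, each more negative in basal cells. For *Sox10* the difference was -4.67 (standard error 0.54, FDR = 1.1e-07). In the luminal comparison 4 of 12 fibroblast and 3 of 8 pericyte genes rose. Of 9 immune genes in the table, 8 rose in luminal cells, with a median change of 2.74. Their sum was 4385, 2799 and 2638 CPM at Id2, with *Cd14* the most abundant (4338, 2626 and 2408 CPM), against 406 to 529 CPM at W10. *Csf1r*, which encodes a macrophage receptor, was at 10.3, 28.6 and 65.7 CPM, against 1.25 to 2.52 CPM at W10. Its order over the 3 Id2 libraries was the reverse of that of the immune sum. The part of immune cells in the luminal *Zeb2* and *Mef2c* results was not tested.

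**Figure D4:**
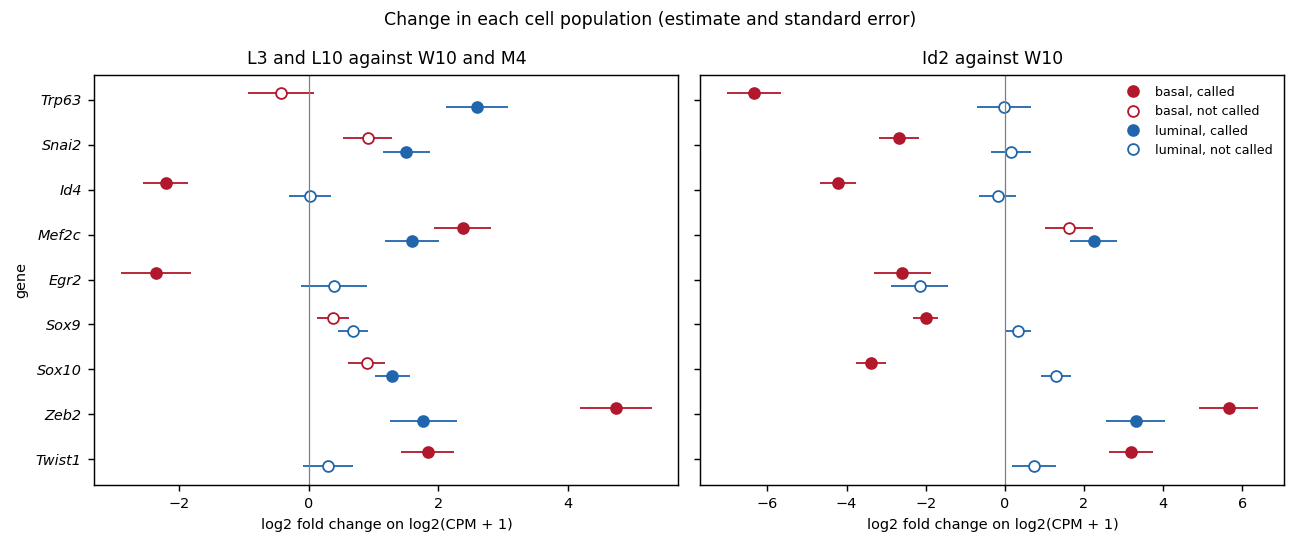
Log2 fold change with its standard error for each of the 9 genes in basal (red) and luminal (blue) cells, for lactation against the never-pregnant state (left) and for Id2 against W10 (right). Filled points were called, and *Trp63* is at -6.34 in basal and at -0.02 in luminal cells in the Id2 panel.

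Parous mice 4 weeks after weaning were compared with never-pregnant mice of M4. None of the 9 was called between Iw4 and M4 in basal cells (0.00586% of all genes) or luminal cells (0%), with 0 at an unadjusted p under 0.05 and 0 by edgeR in both. In basal cells the changes ran from -0.66 for *Egr2* to 0.63 for *Zeb2*, with standard errors of 0.72 and 0.74. *Trp63* was at 470, 538 and 605 CPM at Iw4 and 620, 659 and 595 CPM at M4. *Id4* was at 91.5, 49.6 and 106 CPM at Iw4.

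Over all 8 time points, each of the 9 factors varied in basal cells (moderated F test, FDR under 0.01), as did 44.5% of all genes. In luminal cells 6 did (*Trp63*, *Snai2*, *Mef2c*, *Sox9*, *Sox10* and *Zeb2*), against 34% of all genes. Without the Id2 libraries, *Trp63* (FDR = 0.83), *Sox9* (FDR = 0.057) and *Sox10* (FDR = 0.021) no longer varied past the threshold in basal cells. *Id4* (FDR = 1.2e-06), *Zeb2* (FDR = 6.1e-09), *Mef2c* (FDR = 3.4e-05), *Twist1* (FDR = 0.00014), *Egr2* (FDR = 0.0015) and *Snai2* (FDR = 0.0017) still did. In luminal cells *Zeb2* no longer varied past the threshold (FDR = 0.04), and the other 5 still did. By edgeR, *Egr2* was at FDR = 0.022 over all 8. In the order of means, basal *Trp63* was highest at W10 (895 CPM), and each time point down to L10 overlapped with the next, so that only Id2 stood apart (13.3 CPM). Basal *Id4* was highest at M4 (112 CPM, no overlap with the next), then overlapped from Iw4 to P14.5 (82.3 to 49.0 CPM), fell to L10 and L3 (18.7 and 17.9 CPM), and was lowest at Id2 (4.32 CPM). Basal *Snai2* was highest at L10, L3 and W10 (337, 270 and 212 CPM), where L3 overlapped with both others and L10 and W10 did not overlap, and then lay lower from Iw4 (138 CPM) to P14.5 (89.1 CPM) and Id2 (39.1 CPM). Basal *Mef2c* was highest at L10, Id2 and L3 (486, 301 and 205 CPM), where L10 and L3 did not overlap and the wide Id2 range of 75.5 to 526 CPM overlapped with both. The means of the other 5 time points ran from 35.4 to 90.0 CPM, and only Id2 replicate 6 (75.5 CPM) lay among them. Basal *Egr2* was highest at W10 (982 CPM), and each time point down to Iw4 (423 CPM) overlapped with the next. L3 (179 CPM) and L10 (128 CPM) lay below these and apart from each other, and Id2 (280 CPM), at 37.3 to 670 CPM, overlapped with L3, L10 and the others. Basal *Zeb2* was highest at Id2 and L10 (588 and 518 CPM), then at L3 and P14.5 (215 and 122 CPM), and stood apart from Iw4, M4, W10 and P3.5 (24.8 to 5.93 CPM). Basal *Sox9* and *Sox10* were highest at L3 (442 and 418 CPM) and stood apart at Id2 (89.1 and 21.9 CPM).

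Relatives of the 9 were taken as 14 further genes of their families. Averaged over time, 5 were higher in basal cells (*Sox8*, *Trp73*, *Egr1*, *Id3* and *Egr4*) and 9 were not called, against 13.6% of all genes higher. *Sox8*, of the same group as *Sox9* and *Sox10*, was higher by 3.11 (standard error 0.20, FDR = 1.4e-16), and *Trp73*, the p63 relative, by 2.77 (standard error 0.12, FDR = 5.6e-21). At lactation in basal cells *Id3* (2.99, FDR = 3.5e-07), *Id1* (1.96, FDR = 6.6e-05), *Snai1* (1.82, FDR = 0.00051) and *Mef2d* (1.43, FDR = 2.5e-07) rose, while *Id4* fell. *Trp73* fell (-1.36, FDR = 5.9e-05). Of all genes 9.58% rose and 6.97% fell there, and the 7 pericyte and 12 endothelial markers given above rose in the same libraries. The part of those cells in these changes was not tested. At Id2, *Sox8* (-4.62, FDR = 2.1e-08) and *Trp73* (-3.78, FDR = 8.4e-11) fell in basal cells together with *Sox10* and *Trp63*, and *Snai1* (2.70, FDR = 0.00018) and *Twist2* (2.10, FDR = 0.00012) rose. With *Id3* (2.71) and *Egr3* (-2.66), 3 of the 14 rose and 3 fell, against 8.78% and 8.58% of all genes. In the same 3 libraries 10 of 12 fibroblast, 10 of 12 endothelial and 6 of 8 pericyte genes rose, and their part in these changes was not tested.

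Genes known as p63 targets or basal adhesion genes numbered 22. With lactation 2 rose (*Jag1* and *Nrg1*), 1 fell (*Sfn*) and 19 were not called in basal cells, where 9.58% of all genes rose and 6.97% fell, with a median of 0.09 against -0.05 for all genes. At Id2, 18 of 22 fell, against 8.58% of all genes, and 4 were not called, with a median of -3.31 against -0.02. The keratins *Krt5* (-6.52) and *Krt14* (-6.06), the hemidesmosome collagen *Col17a1* (-6.24) and the cadherin *Fat2* (-6.33) were among them. *Jag1*, a Notch ligand, was at 0.47. The same 3 libraries were lower in 10 of 10 basal markers, 4 of which (*Krt5*, *Krt14*, *Col17a1* and *Lamb3*) belong to both lists, and higher in markers of other cells. Without any 1 of the Id2 libraries, 17 to 19 of the 22 and 8 to 10 of the 10 basal markers fell.

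Of 17 smooth muscle genes, 16 were higher in basal cells on average, against 13.6% of all genes. With lactation 14 rose, against 9.58% of all genes, among them the coactivator *Myocd* (4.85), *Des* (5.94) and *Myh11* (2.87), and at Id2 9 fell and 2 rose (8.58% and 8.78% of all genes), the latter *Myocd* (2.86) and *Des* (4.47). Without any 1 of the Id2 basal libraries, 5 to 13 fell and 1 or 2 rose. Pericytes also express several of these genes, and *Myh11*, *Acta2*, *Cnn1* and *Tagln* are also among the basal markers. Of 11 epithelial junction genes, which Snai2, Zeb2 and Twist1 are known to repress in other settings, 9 were lower in basal cells on average, against 7.35% of all genes. With lactation in basal cells 6 fell and 0 rose, against 6.97% of all genes lower, with *Cdh1* (E-cadherin) at -1.15 and *Epcam* at -2.32. In the same comparison 5 of 11 luminal markers fell (median -1.47) and the pericyte and endothelial markers given above rose, and their part in this was not tested. In luminal cells 0 of the 11 changed, where 7.37% of all genes rose and 5.83% fell. Of 10 mesenchymal genes, 4 rose and 1 fell in basal cells with lactation, against 9.58% and 6.97% of all genes. *Fn1* (3.62) and *Vim* (2.29) were among those that rose. The fibroblast, pericyte and endothelial markers given above rose in the same comparison, and their part in this was not tested.

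For each factor the 3 genes with the most similar pattern were taken over the 16 condition means, among 10525 genes with a mean of at least 5 CPM. These Pearson correlations describe 16 means that share libraries and cell type contrasts, and were not tested. For *Trp63* they were *1600014C10Rik* (0.99), *Cdh3* (0.986), which encodes P-cadherin, and *Col17a1* (0.982). For *Snai2* they were *Ntng2* (0.995), *Acta2* (0.993) and *Spock2* (0.992), and for *Id4* *Ppp2r2b* (0.984), *Abat* (0.981) and *Ephb1* (0.98). Those of *Mef2c* were *Aoc3* (0.991), *Slit3* (0.99) and *Vim* (0.987), and those of *Egr2* were *Epha4* (0.967), *Fst* (0.963) and *Tenm3* (0.959). *Zeb2* was most like *S1pr3* (0.99), *Abcc9* (0.988), a gene of the pericyte list, and *Ecm2* (0.986). *Twist1* was most like *Adgrd1* (0.985), *Adcyap1r1* (0.984) and *Enpep* (0.979). The closest genes of *Sox9* were *Arhgef5* (0.948), *Map7* (0.936) and *Ttll10* (0.901), and those of *Sox10* were *Src* (0.897), *Usp19* (0.894) and *Shroom3* (0.865). Without the Id2 conditions, *Src* and *Shroom3* were at 0.7 and 0.622.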

How the data were processed

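The authors profiled 47 samples from 24 sorts and set 1 aside as an outlier (basal, P14.5 replicate 2), so that the table holds 46 libraries. They aligned reads with GSNAP to the mouse genome build 37 (mm9), counted them per gene with htseq-count and normalized with edgeR. The deposited values are a signal, namely the read count divided by the effective library size and scaled to CPM by the authors, after removal of genes that did not reach 1 CPM in 3 samples and of some highly read, little varying genes. Every value was a whole number of reads (100% of values, tolerance 0.001), so reads were recovered. The kit does not mark strand, and 4.4% of *Id4* and 3.3% of *Zeb2* exon bases are shared with other transcripts. No column was left out (0).

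Differences were tested with limma (version 3.58.1, R 4.3.3). Log2(CPM + 1) values of all 46 libraries were fitted with 16 group means and a mean-variance trend (30 residual degrees of freedom). Genes were called at 2-fold or more and FDR under 0.01 (Benjamini-Hochberg over 17078 genes). No filter was applied. The basal and luminal libraries of a sort come from the same animals (22 pairs, 21 with a positive correlation of deviations, median 0.31), and a fit with the sort as a block was an alternative (correlation 0.179). Others were a pseudocount of 0.1, median-ratio scaling, a mean of at least 5 CPM, edgeR 4.0.16 on recovered reads, FDR under 0.05, the spread of the compared groups only, left-out libraries, no Id2 libraries and, for Iw4 against M4, a batch term. The limma and edgeR fits were run on simulated reads in which all genes and groups had the same relative spread. This does not cover groups with a wider spread, such as the Id2 basal libraries.

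The text names all members, any gene of the fixed lists and, for each member, the 3 genes of highest correlation. Members and lists were chosen with earlier results of these data known. Lists of immune, adipocyte and skeletal muscle genes had under 80% of their genes in the table, and the first is given with 9 of its 12 genes. Lengths, names and exon overlap came from GENCODE vM21 and promoter windows from RefSeq, both on the later build GRCm38.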

Additional observations from a re-analysis of the deposited data

Results flagged for a closer look

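The change with lactation differed between basal and luminal cells for 4 of the 9 factors, by a test of the difference itself (limma, basal change minus luminal change, against 10.3% of all genes). It was -3.02 for *Trp63* (FDR = 0.0018), which rose in luminal cells and was not called in basal cells. It was -2.23 for *Id4* (FDR = 0.00074) and -2.74 for *Egr2* (FDR = 0.0073), which fell in basal cells. Luminal *Id4* was near the limit of detection, at most 1.88 CPM in any library, with a luminal change of 0.02, so that its difference restates the basal change of -2.21. It was 2.97 for *Zeb2* (FDR = 0.0045), which rose more in basal cells. Without both luminal replicate 5 libraries the *Trp63* difference was -2.17 (FDR = 0.0099), and that of *Egr2* was -2.20 and not called (FDR = 0.035). *Id4* and *Zeb2* were not called by edgeR (-2.28 and 2.17, FDR = 0.063 and 0.1) or with a pseudocount of 0.1 (-2.08 and 2.48, FDR = 0.081 and 0.051). The *Egr2* call was lost with that pseudocount (-2.75, FDR = 0.01), without any of 16 of the 23 libraries and the *Zeb2* call without any of 6 of them, and the part of other cells in these differences was not tested.

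The change from W10 to Id2 differed for 5 of the 9, against 6.85% of all genes, and was more negative in basal cells for each of them. The differences were -6.32 for *Trp63* (FDR = 1.4e-05), -4.67 for *Sox10* (FDR = 1.1e-07), -4.03 for *Id4* (FDR = 3.6e-05), -2.83 for *Snai2* (FDR = 0.006) and -2.33 for *Sox9* (FDR = 0.00042). They rest on the 3 Id2 basal libraries with few basal keratin reads. *Id4*, which was at most 0.61 CPM in luminal libraries of both time points, was not called by edgeR (-3.38, FDR = 0.16), with a pseudocount of 0.1 (-4.11, FDR = 0.016) or with the spread of the compared groups only (FDR = 0.013). *Snai2* was not called in the latter fit (FDR = 0.085) or with a pseudocount of 0.1 (-2.63, FDR = 0.063), and its call was lost without any of 7 libraries. It was at -2.16 without Id2 basal replicate 2 (FDR = 0.03) and -2.00 without Id2 luminal replicate 6 (FDR = 0.036). No group had over 3 libraries, so single outlying libraries were not tested.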

How the results depend on the processing

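For 25 counts of called factors, 413 of 438 recomputed values stayed within 1.5 times the main count. With a pseudocount of 0.1, 1 factor was called for the lactation change and 3 for the Id2 change between cell types, and edgeR called 2 for the former. At FDR under 0.05, 4 were called at Id2 in luminal cells. With the spread of the compared groups only, the counts were 3 at L10 and 2 at Id2 between cell types, 0 for P14.5 against P3.5 and 3 for Id2 against W10 in basal cells, 1 for lactation and 0 for Id2 in luminal cells, and 3 for the Id2 change between cell types. Without both replicate 5 luminal libraries, an alternative chosen after seeing the data, 2 were called for lactation in luminal cells. With single libraries left out the counts ran from 0 to 1 for P14.5 against P3.5 in basal cells, from 1 to 2 for Id2 in luminal cells, from 3 to 5 for lactation in luminal cells and from 2 to 5 for the lactation change between cell types. The 0 came without P14.5 basal replicate 3. The difference of *Trp63* at Id2 ran from -0.83 to 0.70 with a library left out. With the replicate block (sort), 8 in place of 7 were called between cell types at Id2, the added gene being *Id4* (1.49), and the other 24 counts were equal. A batch term left 0 called between Iw4 and M4. Depth limits *Twist1* and luminal *Id4*. Most luminal and some basal libraries held under 3 reads of *Twist1*, and many luminal libraries held under 3 reads of *Id4*.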

Other observations

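Luminal cells changed in several of the lists followed here. With lactation, 7 of the 22 p63 target and basal adhesion genes rose and 2 fell in luminal cells, against 7.37% and 5.83% of all genes, with a median log2 change of 0.26 against -0.01 for all genes. Of the 10 basal markers 6 rose, with *Krt5* at 4.02, *Krt14* at 3.73 and *Krt17* at 2.94 (limma, FDR under 0.01). Of the 10 mesenchymal genes 5 rose, among them *Fn1* (3.27), *Sparc* (2.90) and *Vim* (2.30), and 5 rose between W10 and Id2 as well, against 6.23% of all genes. At Id2, 4 of 12 fibroblast, 3 of 8 pericyte and 8 of 9 immune genes rose in these cells, with 5587 CPM of fibroblast markers in replicate 6, and their part was not tested. In the luminal comparison with lactation 10 of 12 endothelial, 3 of 8 pericyte, 3 of 9 immune and 1 of 12 fibroblast markers rose. Without both luminal replicate 5 libraries, 6 basal markers, 4 p63 target and 4 mesenchymal genes rose, as did 2 of 12 endothelial, 2 of 8 pericyte and 0 of 12 fibroblast markers. The endothelial sum was 141, 574 and 219 CPM at L3, with *Cdh5* or *Pecam1* the most abundant gene, and their part in these changes was not tested. Of 5 adipocyte genes measured, 4 rose with lactation in basal and 2 in luminal cells, and of 3 skeletal muscle genes 2 rose in basal and 0 in luminal cells, against 9.58% of all genes in basal and 7.37% in luminal cells.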
